A study of Homo sapiens with 24 samples.

Results

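Glycolysis and the response to low oxygen were followed through 40 genes in human Panc-1 pancreatic ductal adenocarcinoma (PDAC) cells in which an acinar transcription factor was switched on. The genes were chosen by name, 24 for glycolysis and its branches to lactate and acetyl-CoA and 16 for the hypoxia-inducible factors (HIFs) and their targets, from 14426 genes listed in any of 3 tables of read counts. All 40 were found, 39 in each table. EGLN3 was listed for Tet-PTF1a alone of the 3 lines, and CA9 for Tet-One and Tet-MIST1.

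The 3 lines were Panc-1 clones that stably carried the doxycycline-responsive Tet-One plasmid. Tet-One cells held the empty plasmid, Tet-MIST1 cells a myc-tagged rat MIST1 reading frame and Tet-PTF1a cells a myc-tagged mouse PTF1a reading frame, and all were selected with puromycin. MIST1 and PTF1a are transcription factors of the enzyme-secreting acinar cells of the pancreas. Each line was grown for 72 h without (Control) or with (Dox) 1 µg/ml doxycycline, in high-glucose medium with tetracycline-depleted serum, and polyadenylated RNA of 4 biological replicates per group was sequenced. Cells were at passage 32 in Tet-One and Tet-PTF1a and at passage 33 in Tet-MIST1. As each line was grown from a screened clone, a difference between lines cannot be told apart from one between clones or, for Tet-MIST1, passages. In the methods and labels available no hypoxic group is described, so every value is from cells in standard culture.

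Glycolysis splits glucose into pyruvate in the cytosol. Glucose enters through transporters, is trapped by hexokinase, committed by phosphofructokinase and cleaved by aldolase, and the products are carried by glyceraldehyde-3-phosphate dehydrogenase and later enzymes to pyruvate. Lactate dehydrogenase converts pyruvate and lactate into each other, and monocarboxylate transporters move lactate across the membrane. Pyruvate dehydrogenase kinases hold back the conversion of pyruvate to acetyl-CoA. When oxygen is short, prolyl hydroxylases of the EGLN family no longer mark the HIF alpha subunits for degradation, and HIF then activates genes of glucose use, blood vessel growth, mitophagy and collagen modification. Because this control acts mostly on the HIF proteins, the transcript level of HIF1A or EPAS1 is not a measure of HIF activity. Pancreatic cancers are known for dense, poorly perfused tissue and high glycolytic activity.

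The libraries held from 17210989 to 43018494 counted reads. At this depth 38 of the 40 members had a mean level above 1 CPM (the count of a gene scaled to a common library size) in every group in which they were listed. The exceptions were CA9 and CA12, and EGLN3 was only just above. The human PTF1A gene, which can take up reads of the mouse transgene, had 0 to 2 counts in Tet-PTF1a Control and 53 to 168 in Dox. The cells expressed the epithelial keratins KRT8 and KRT18 and the mesenchymal VIM, while the leukocyte and endothelial genes PTPRC, PECAM1, CDH5 and VWF were listed for none of the lines. CD68, a further marker of that list, was expressed in all lines. In Control it was at 99.4 to 110 CPM in Tet-One, 253 to 259 in Tet-MIST1 and 62.9 to 68.9 in Tet-PTF1a. Tet-One Dox replicate 1 stood apart. Over all genes the SD of its log2 deviation from the rest of the Dox group was 0.578, and 0.199 to 0.225 for the rest, so results that rest on Tet-One are also given without it. In Tet-PTF1a Control replicate 1 the level was the lowest of its group for 30 of 38 members. Without that library 32 members passed in the line (5 induced, 27 repressed) in place of 30, PFKFB4 and ANKRD37 being the 2 added. The share of all genes that then passed is not reported here.

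With Dox, most glycolytic genes were repressed in Tet-PTF1a cells, 11 of 38 members changed in Tet-MIST1 cells, and none was called in Tet-One cells. In Tet-PTF1a, 30 of 39 members tested were differentially expressed genes (DEGs, FDR under 0.05, edgeR's quasi-likelihood test), 5 induced and 25 repressed. The background was high, as 48.2% of all genes tested in this line were DEGs, 23.8% of genes being induced and 24.4% repressed. Repressed members made up 64.1% of those tested and induced members 12.8%. The median log2 fold change of the members was -0.23, against 0.00 for all genes. With library size in place of TMM scaling, 61.9% of all DEGs were induced in place of 49.4%, and of the members 6 were induced and 25 repressed, SLC16A1 being the one added. Of 38 members tested in Tet-MIST1, 7 were induced (background 11.9% of genes) and 4 repressed (8.77%), in all 28.9% against a background of 20.6%, and their median change was 0.00. In Tet-One, 0 of 39 members and 0% of all genes passed. There 8 members had an unadjusted p under 0.05 in edgeR's test, beside 401 of all 13428 genes tested. The smallest FDR of a member was 0.897, and DESeq2 also called 0 members. Without Tet-One Dox replicate 1 again 0 members passed, but 20 had an unadjusted p under 0.05 and the smallest FDR was 0.185 (NDRG1). The share of all genes under that p without this library is not reported here. The Tet-One values were nevertheless mostly negative, in 33 of 39 members, with a median of -0.13 on the log2 scale against 0.00 for all genes.

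**Figure D1:**
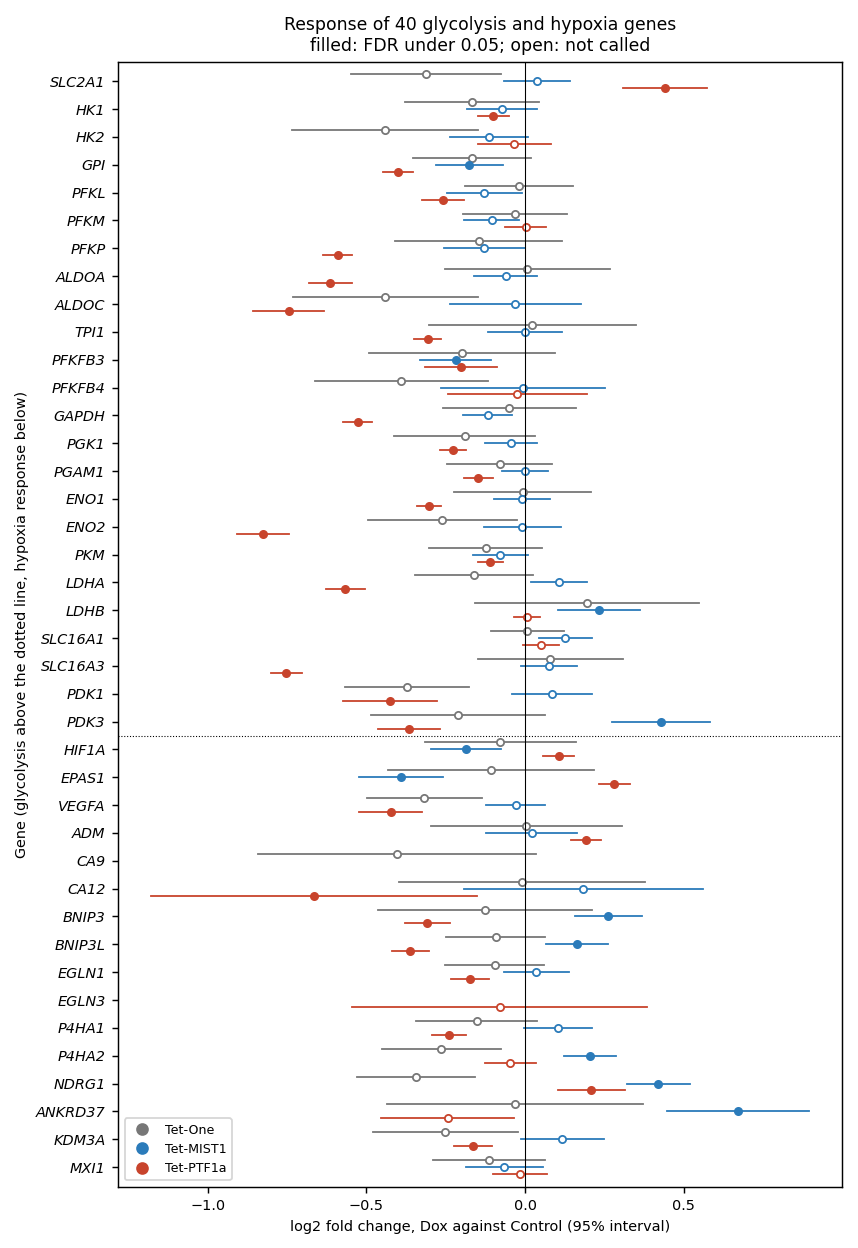
Log2 fold change of each member with Dox against Control, in Tet-One (grey), Tet-MIST1 (blue) and Tet-PTF1a (red); lines span 95% intervals, filled points passed FDR 0.05 and open points did not. Tet-PTF1a shows 25 repressed and 5 induced genes, Tet-MIST1 4 and 7, and no Tet-One point is filled.

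The classes were counted apart in Tet-PTF1a cells. Of all genes tested, 24.4% were repressed and 23.8% induced. Of the 24 glycolysis genes, 18 were repressed (75.0%) and 1 induced (4.17%), with a median log2 fold change of -0.28. Of 15 hypoxia genes tested, 7 were repressed (46.7%) and 4 induced (26.7%, near the share of all genes), with a median of -0.16. The summed level of the 24 glycolysis genes was 13766 ± 507 CPM in Tet-PTF1a Control and 10661 ± 143 in Dox (SD, n = 4), and the Dox libraries spanned 10527 to 10862 while the lowest Control library held 13046. In Tet-MIST1 the sums were 18476 ± 50.5 and 18021 ± 367 CPM, and in Tet-One 20553 ± 1621 and 19717 ± 1810. In these lines Control and Dox libraries overlapped.

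At the entry of the pathway, SLC2A1, the broadly expressed glucose transporter GLUT1 (hg19 chr1:43391046-43424847), was the one induced gene of the glycolysis class. Its level in the 4 Tet-PTF1a Control libraries was 38.4, 44.4, 48.0 and 44.6 CPM, and with Dox 61.7, 61.4, 54.6 and 57.9. All Dox libraries lay above all Control libraries. SLC2A1 was induced by 0.44 ± 0.067 on the log2 scale (SE, edgeR FDR = 0.000324). In Tet-One the level went the other way without passing the test, from 88.5 ± 10.2 to 71.3 ± 9.72 CPM (log2 fold change -0.31, FDR = 0.897), and in Tet-MIST1 it was 45.9 ± 0.699 and 47.0 ± 3.05 CPM. The responses of Tet-PTF1a and Tet-One differed by 0.74 ± 0.14 (FDR = 0.00233), and by 0.67 without Tet-One Dox replicate 1 (FDR = 0.0016). Of the hexokinases, which trap glucose as its phosphate, HK1 was repressed slightly in Tet-PTF1a (log2 fold change -0.10 ± 0.025, FDR = 0.000833, and 0.359 with all 24 libraries in 1 fit), and HK2 was at 21.0 ± 0.934 CPM in Control and 20.7 ± 2.09 in Dox (FDR = 0.659).

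In upper glycolysis, 6 of 7 genes were repressed in Tet-PTF1a (background 24.4% of genes) and none was induced. PFKP, the platelet-type subunit of the committing phosphofructokinase (chr10:3109712-3178997), was at 272, 281, 277 and 287 CPM in Control and at 181, 189, 184 and 187 in Dox. The groups were far apart and each was tight. Its log2 fold change was -0.59 ± 0.023 (FDR = 4.27e-27). The liver-type subunit PFKL fell by 0.26 on the log2 scale (FDR = 1.17e-08). The muscle-type subunit PFKM was at 66.7 ± 2.51 CPM in Control and 66.8 ± 1.89 in Dox, with a 95% interval of the log2 change from -0.06 to 0.07. PFKM shares 6.02% of its exon bases with SENP1 on the opposite strand.

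Both aldolases, which split fructose bisphosphate into trioses, were repressed in Tet-PTF1a cells. ALDOA (chr16:30064411-30081741) was at 1435, 1516, 1582 and 1612 CPM in Control and at 1000.5, 1039, 978 and 998 in Dox. ALDOC (chr17:26900133-26903951), the form known from brain, was at 21.6, 23.4, 22.0 and 24.4 CPM in Control and at 13.7, 14.5, 13.6 and 12.9 in Dox. For neither gene did the groups overlap. The log2 fold changes were -0.61 ± 0.035 (FDR = 6.25e-08) for ALDOA and -0.74 ± 0.057 (FDR = 5.27e-16) for ALDOC. The isomerases GPI and TPI1, which act before and after this cleavage, were also repressed, with log2 fold changes of -0.40 and -0.31. Of the PFKFB enzymes, which set the level of the activator of phosphofructokinase, PFKFB3 fell by 0.20 on the log2 scale (FDR = 0.00398, and 0.174 with all 24 libraries in 1 fit). PFKFB4 did not pass the test (-0.02, FDR = 0.881), but did without Control replicate 1 (-0.14, FDR = 0.0137).

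All 6 genes of lower glycolysis were repressed in Tet-PTF1a (background 24.4% of genes). GAPDH (chr12:6643571-6647541), which oxidizes the triose phosphate and is often used as a reference transcript, was at 2337, 2493, 2555 and 2553 CPM in Control and at 1689.9, 1771, 1709 and 1724 in Dox. The highest Dox library was well under the lowest Control library, and the log2 fold change was -0.53 ± 0.023 (FDR = 1.06e-16). ENO2 (chr12:7023614-7032859), the gamma enolase best known from neurons, showed the largest fall among the members. It was at 50.9, 57.8, 57.5 and 55.9 CPM in Control and at 32.7, 30.7, 31.5 and 30.0 in Dox, a log2 fold change of -0.83 ± 0.042 (FDR = 3.33e-22). The widely expressed enolase ENO1 fell by 0.30 and the phosphoglycerate kinase PGK1 by 0.23 on the log2 scale. The smallest repressions of this group were those of the mutase PGAM1 (-0.15) and of the pyruvate kinase PKM (-0.11), which did not pass with all 24 libraries in 1 fit (FDR = 0.13). GAPDH, PGK1, PGAM1, ENO1, TPI1, PKM, LDHA and LDHB have processed pseudogenes of nearly the same sequence, so the split of reads between copies is uncertain for them.

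At the lactate branch, LDHA, which favors the formation of lactate (chr11:18415936-18429765), was at 1592, 1752, 1785 and 1759 CPM in Tet-PTF1a Control and at 1170.3, 1186, 1153 and 1143 in Dox. SLC16A3, the lactate exporter MCT4 (chr17:80186282-80197375), was at 425, 449, 473 and 456 CPM in Control and at 270.1, 268, 263 and 268 in Dox. Neither gene's groups overlapped, and the log2 fold changes were -0.57 ± 0.031 for LDHA (FDR = 2.5e-09) and -0.75 ± 0.024 for SLC16A3 (FDR = 1.03e-27). Their partners did not pass the test. LDHB was at 493 CPM in Control and 495 in Dox, spanning 486 to 511 in the Dox libraries (95% interval of the log2 change -0.04 to 0.05), and SLC16A1, the transporter MCT1, was at 101 ± 2.32 and 105 ± 3.59 CPM (FDR = 0.155, and 0.011 with library size scaling).

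Both pyruvate dehydrogenase kinases were repressed in Tet-PTF1a cells. PDK1 (chr2:173420101-173490351), a well-known HIF target, was at 28.0, 33.2, 34.6 and 34.8 CPM in Control and at 23.8, 25.4, 25.5 and 22.2 in Dox (log2 fold change -0.43 ± 0.076, FDR = 0.000418). PDK3 (chrX:24483344-24568583) was at 26.0, 26.9, 26.0 and 28.0 CPM in Control and at 20.4, 22.2, 20.9 and 19.8 in Dox (-0.36 ± 0.049, FDR = 1.7e-08). No library of either gene crossed between the groups. In Tet-MIST1 cells PDK3 moved the other way, from 17.8, 18.8, 19.0 and 17.5 CPM to 21.7, 28.5, 25.3 and 22.9, an induction of 0.43 ± 0.079 (FDR = 0.00347), and the responses of the Tet-PTF1a and Tet-MIST1 lines differed by -0.78 ± 0.095 (FDR = 1.36e-06).

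**Figure D2:**
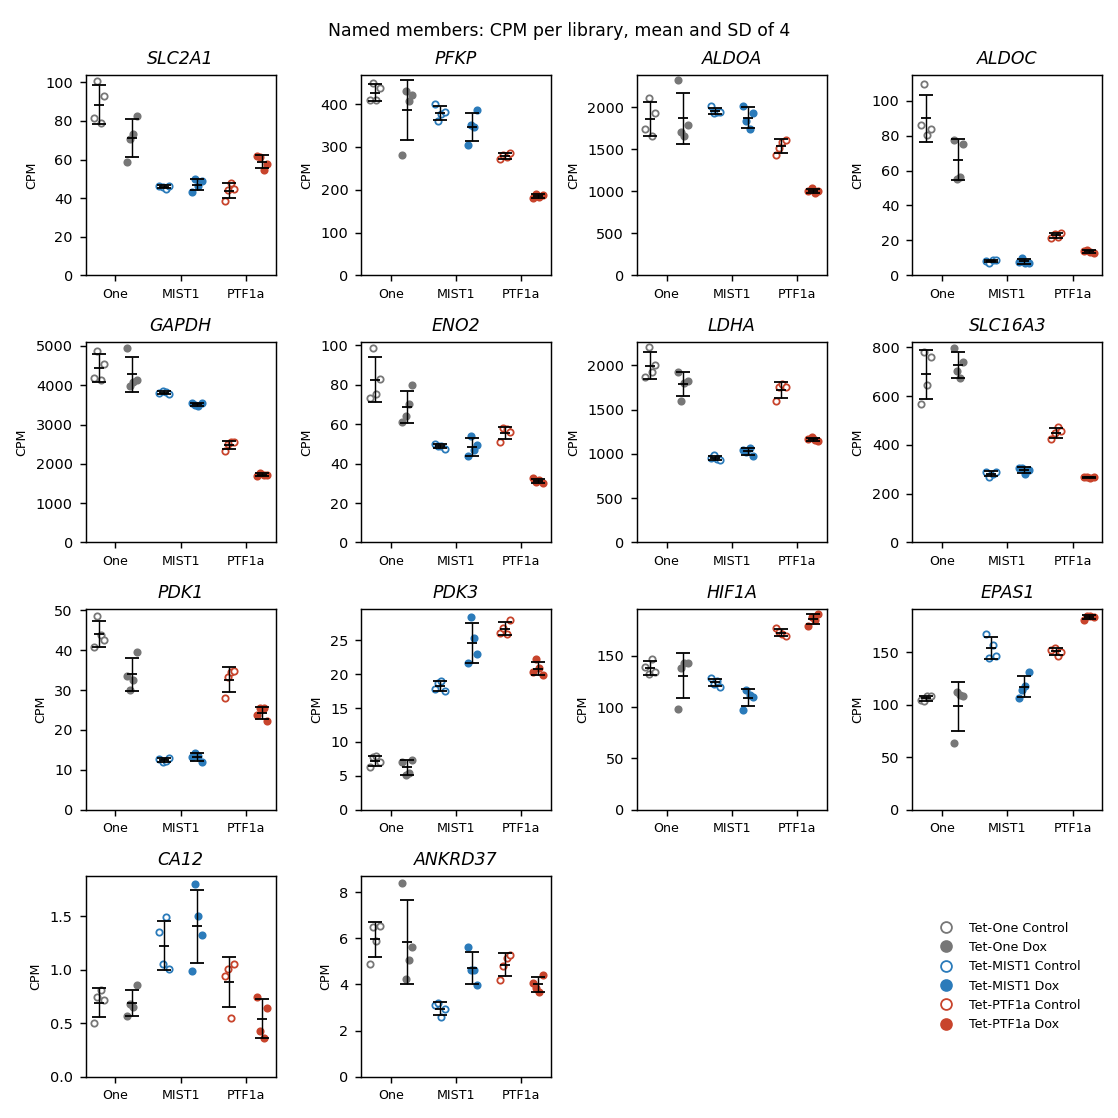
Level of 14 members in each library, in CPM with TMM scaling (axes start at 0); open points are Control, filled points Dox, and bars the mean and SD of 4 libraries, in Tet-One (grey), Tet-MIST1 (blue) and Tet-PTF1a (red). For PFKP, ALDOA, ALDOC, GAPDH, ENO2, LDHA and SLC16A3 every Tet-PTF1a Dox library lies under every Control library, and for SLC2A1 and EPAS1 above.

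Transcripts of the HIF alpha subunits were induced in Tet-PTF1a cells and repressed in Tet-MIST1 cells. In Tet-PTF1a, EPAS1 (chr2:46524541-46613842), which encodes HIF-2 alpha, was at 152, 154, 147 and 150.3 CPM in Control and at 180.4, 185, 185 and 183 in Dox. HIF1A (chr14:62162119-62214977) was at 177, 173, 171 and 169.7 CPM in Control and at 179.5, 188, 185 and 191 in Dox. All Dox libraries were above all Control libraries for both genes, though for HIF1A by a narrow margin. The inductions were 0.28 ± 0.025 for EPAS1 (FDR = 5.25e-14) and 0.11 ± 0.025 for HIF1A (FDR = 0.000369). When all 24 libraries were fitted together, so that the spread of the other lines entered, neither passed (FDR = 0.0765 and 0.44).

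In Tet-MIST1 cells, EPAS1 was at 167, 145, 157 and 147 CPM in Control and at 106, 114, 118 and 131 in Dox, and HIF1A was at 128, 123, 126 and 119.6 CPM in Control and at 97.4, 117, 112 and 109 in Dox. Every Dox library was below every Control library. EPAS1 was repressed (log2 fold change -0.39 ± 0.067, FDR = 0.00238) and HIF1A by less (-0.19 ± 0.056, FDR = 0.0367). The lowest value of each was in Dox replicate 1, and the call for HIF1A was lost under 8 of 19 alternatives (FDR up to 0.149). The Dox response was higher in Tet-PTF1a than in Tet-MIST1 by 0.69 ± 0.072 for EPAS1 (FDR = 1.65e-07) and by 0.30 ± 0.061 for HIF1A (FDR = 0.000515), and both differences passed under all 25 alternatives. In Tet-One neither gene passed. EPAS1 was at 63.5 CPM in Tet-One Dox replicate 1 and at 112, 109 and 108 in the other Dox libraries, against 103 to 108 in Control. The response of EPAS1 differed from that in Tet-One by 0.39 in Tet-PTF1a (edgeR FDR = 0.184) and -0.29 in Tet-MIST1 (FDR = 0.665). For HIF1A these were 0.18 (FDR = 0.429) and -0.12 (FDR = 0.889), and none passed. Without Tet-One Dox replicate 1 EPAS1 passed in both (0.23, FDR = 6.07e-05 and -0.44, FDR = 0.00168). HIF1A then passed in neither (0.08, FDR = 0.2425 and -0.21, FDR = 0.0618).

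Among products that HIF activates, VEGFA, the vascular growth factor, was repressed in Tet-PTF1a from 72.6 ± 5.66 to 54.2 ± 1.86 CPM (log2 fold change -0.42 ± 0.050, FDR = 3.61e-06), whereas ADM, the vasodilator peptide adrenomedullin, was induced from 158 ± 2.79 to 181 ± 3.28 (0.19 ± 0.025, FDR = 5.1e-09). The mitophagy receptors BNIP3 and BNIP3L were both repressed (log2 fold changes -0.31 and -0.36), as were EGLN1, the main oxygen-sensing prolyl hydroxylase (-0.17), P4HA1, a catalytic subunit of the collagen prolyl hydroxylase (-0.24), and KDM3A, a histone demethylase (-0.16). NDRG1, a stress-induced gene, was induced from 20.9 ± 1.79 to 24.04 ± 0.488 CPM (0.21 ± 0.054, FDR = 0.00101). P4HA2 and the MYC-antagonist MXI1 did not pass the test, with log2 fold changes of -0.05 and -0.02, nor did ANKRD37 (-0.24, FDR = 0.0515), except without Control replicate 1 (-0.33, FDR = 0.00936) and under 4 other alternatives. With all 24 libraries in 1 fit, ADM (FDR = 0.244), BNIP3 (0.0548) and KDM3A (0.161) did not pass.

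The carbonic anhydrases, which CA9 makes a common marker of hypoxia, were hardly expressed. CA12 (chr15:63615730-63674309) was at 0.943, 1.01, 0.546 and 1.05 CPM in Tet-PTF1a Control and at 0.747, 0.424, 0.361 and 0.640 in Dox. The groups overlapped, and although the test gave a log2 fold change of -0.67 ± 0.26 (FDR = 0.0178), the call was lost under 5 of 18 alternatives. CA9 had 21 to 29 counts per library in Tet-One Control and 15 to 26 in Dox, and at most 3 counts in any Tet-MIST1 library, too few to be tested there. EGLN3 had 8 to 45 counts per library in Tet-PTF1a, at 1.05 ± 0.507 CPM in Control and 1.02 ± 0.141 in Dox, and a change was not detectable at this depth (FDR = 0.793).

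In Tet-MIST1 cells, 4 of 24 glycolysis genes passed (16.7%) and 7 of 14 hypoxia genes (50%), against 20.6% of all genes. In the glycolysis class, LDHB was induced from 845 ± 37.5 to 993 ± 95.2 CPM (log2 fold change 0.23, FDR = 0.0285) beside PDK3, and GPI (-0.18) and PFKFB3 (-0.22) were repressed. Of 19 alternatives LDHB passed under 13, GPI under 12 and PFKFB3 under 13, with FDRs of up to 0.213, 0.118 and 0.195. In the hypoxia class, ANKRD37, NDRG1, BNIP3, P4HA2 and BNIP3L were induced, the last with its call kept under 11 of 19 alternatives (FDR up to 0.126). ANKRD37 (chr4:186317840-186321390), an ankyrin repeat gene known as a HIF target, showed the largest change of any member in this line. It was at 3.11, 3.19, 2.58 and 2.94 CPM in Control and at 5.62, 4.61, 4.63 and 3.98 in Dox (0.67 ± 0.11, FDR = 0.00214). The groups did not overlap. As 45.4% of its exon bases lie opposite exons of UFSP2 and the use of strand in counting is not given in the sources used here, reads of the partners may not have been told apart. NDRG1 was induced from 31.8 ± 1.18 to 42.5 ± 1.79 CPM (0.42 ± 0.050, FDR = 0.000213), BNIP3 from 87.8 ± 3.38 to 105 ± 6.78 (0.26, FDR = 0.00621, and 0.138 with all 24 libraries in 1 fit), and P4HA2 from 44.7 ± 0.728 to 51.6 ± 0.951 (0.21, FDR = 0.00611). LDHA was at 932 to 986 CPM in Control and 1028 ± 38.9 in Dox (FDR = 0.105) and GAPDH at 3814 ± 34.0 and 3513 ± 38.9 (log2 fold change -0.12, FDR = 0.0536, and 0.000246 with DESeq2). With a log2 fold change of 0.5 or more in size required, ANKRD37 alone of the 11 passed (background 2.97% of genes). The count of 11 fell to 6 without Control replicate 1, Control replicate 3 or Dox replicate 3, and to 7 without Control replicate 4. Calls that passed with any single library left out were 6 of the 11. The share of all genes called in those fits is not reported here.

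**Figure D3:**
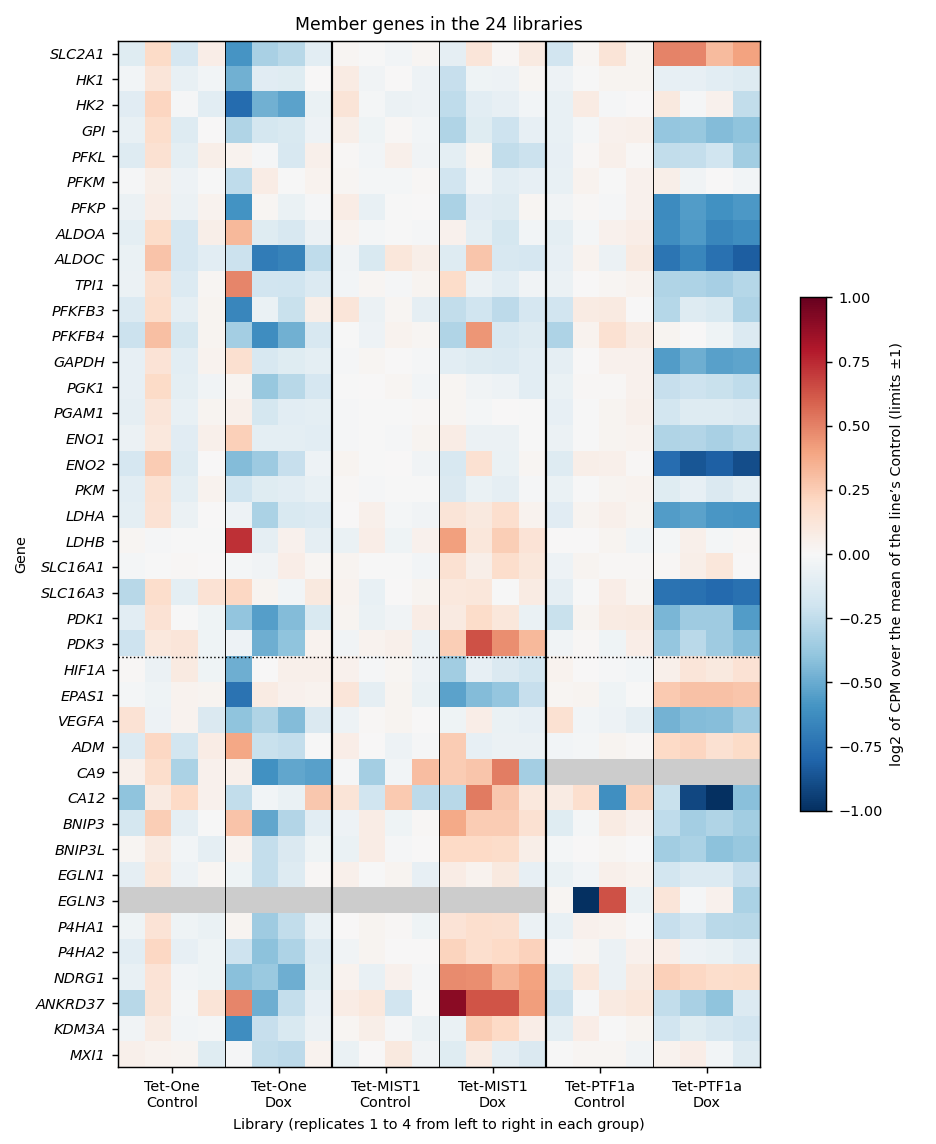
Each member (rows) in each of the 24 libraries (columns), as log2 of the CPM over the mean of that line's Control, with 0.1 CPM added to both; grey marks a gene not listed for a line, and values past the limits of ±1 take the end color. In Tet-PTF1a the Dox columns are alike from replicate to replicate, whereas Tet-One Dox replicate 1 differs from the other Dox libraries of its line.

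The difference between the response of a transgene line and that of Tet-One was tested directly, since Dox was given to all lines. Between Tet-PTF1a and Tet-One, 9 of 38 members differed (23.7%, against a background of 12.9% of genes), 7 with a lower response in Tet-PTF1a (background 7.34%) and 2 with a higher one (5.52%). SLC16A3 differed most (-0.83 ± 0.12, FDR = 0.000195), followed among the lower ones by ALDOA (-0.62), ENO2 (-0.57), GAPDH (-0.48), PFKP (-0.45), LDHA (-0.41) and BNIP3L (-0.27). The higher ones were SLC2A1 and NDRG1 (0.55 ± 0.11, FDR = 0.00378). NDRG1 was at 37.8 ± 2.52 CPM in Tet-One Control and 29.8 ± 3.42 in Dox. PFKP passed narrowly (FDR = 0.0485) and under 8 of 25 alternatives, and BNIP3L (FDR = 0.038) under 12 of 25. For PFKP, Tet-One Dox replicate 1 held the lowest level of the line, 281 CPM against 407 to 431 in the other Dox libraries. Without that library PFKP differed by -0.56 (FDR = 4.28e-11) and BNIP3L by -0.22 (FDR = 0.00486). The other differences were then -0.78 for SLC16A3, -0.49 for ALDOA, -0.61 for ENO2, -0.40 for GAPDH, -0.36 for LDHA and 0.53 for NDRG1, and each passed.

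For other members repressed in Tet-PTF1a, the difference from Tet-One was not resolved. PDK1 had a log2 fold change of -0.43 in Tet-PTF1a and -0.37 in Tet-One, where it was at 44.0 ± 3.29 CPM in Control and 34.0 ± 4.09 in Dox, and the difference was -0.06 with a 95% interval from -0.31 to 0.20. For VEGFA it was -0.11 (-0.32 to 0.11) and for ALDOC -0.30 (-0.63 to 0.03). Without Tet-One Dox replicate 1 these were -0.05 (-0.32 to 0.22) for PDK1, -0.13 (-0.35 to 0.09) for VEGFA and -0.21 (-0.61 to 0.18) for ALDOC. In all 13 members then differed, 9 lower and 4 higher. ENO1, GPI, ADM and EPAS1 were then among them, the last with a difference of 0.23 (FDR = 6.07e-05). The share of all genes that differed without that library is not reported here, so the count of 13 has no background. For the spread of replicates, edgeR put the biological variation of a typical gene at 14.4% in Tet-One, 6.58% for Tet-MIST1 libraries and 2.8% for Tet-PTF1a libraries. The Tet-One value includes Dox replicate 1, whose counts differed from those of the other Dox libraries with a chi-square of 223 to 238 for each degree of freedom. The other Tet-One pairs reached 2.63 to 12.8, and pairs of Tet-MIST1 up to 45.1.

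Between Tet-MIST1 and Tet-One, 2 of 39 members differed (5.13%, background 1.66%). They were NDRG1 (0.76 ± 0.10, FDR = 0.000761) and P4HA2 (0.46 ± 0.10, FDR = 0.0289), both with the higher response in Tet-MIST1 (background 1.48%), and the call for P4HA2 passed under 15 of 25 alternatives. Without Tet-One Dox replicate 1 the count was 12, of which 11 were higher in Tet-MIST1, and EPAS1 was lower (-0.44). Among the higher ones were ANKRD37 (0.94), PDK3 (0.71), BNIP3 (0.57) and PDK1 (0.46). PDK1 was not called within Tet-MIST1 (log2 fold change 0.09, edgeR FDR = 0.357), and in Tet-One without that library its log2 fold change was -0.37. The background of 1.66% is that of the fit with all libraries. The share of all genes that differed without that library is not reported here, so the count of 12 has no background. Between Tet-PTF1a and Tet-MIST1, 28 of 38 members differed (73.7%, background 36.4%), 25 with the lower response in Tet-PTF1a, led by ANKRD37 (-0.91 ± 0.16), CA12 (-0.85 ± 0.34, passed under 13 of 24 alternatives), SLC16A3 (-0.82 ± 0.054) and ENO2 (-0.81 ± 0.078). The 3 with the higher response were EPAS1, SLC2A1 and HIF1A. The comparisons share libraries, so their counts are not independent of each other.

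Isozymes that catalyze the same reaction, and transporters of the same substrate, were set against each other. The share of each isozyme was computed in every library from reads per kilobase of exon, so that genes of different length could be set side by side. Of the lactate dehydrogenase transcripts, LDHB made up 33.1, 31.1, 31.0 and 30.4% in Tet-PTF1a Control and 39.9, 40.8, 40.2 and 41.0% in Dox, a difference in means of 9.06 percentage points. The share of PFKM among the 3 phosphofructokinases was 13.03 ± 0.182% in Control and 17.7 ± 0.601% in Dox, and that of PFKP was 70.2 ± 0.531% and 63.3 ± 1.06%. SLC16A3 made up 89.3 ± 0.291% of both lactate transporters in Control and 82.8 ± 0.633% in Dox, and ENO2 made up 3.14 ± 0.121% and 2.20 ± 0.0936% of both enolases. In these 5 cases no Dox library overlapped a Control library. Each reached the smallest p that an exact two-sided permutation test of 4 against 4 can give (p = 0.0286). Adjusted over all 21 shares tested, this became 0.1, and 0 shares passed 0.05. At least 12 shares at the smallest p would have been needed for any to pass. In Tet-MIST1 no share reached the smallest p. LDHB was at 58.5 ± 1.06% in Control and 60.6 ± 1.90% in Dox there (exact p = 0.0571). In Tet-One 1 share did, that of ALDOC, at 8.63 ± 0.594% of both aldolases in Control and 6.49 ± 0.772% in Dox.

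**Figure D4:**
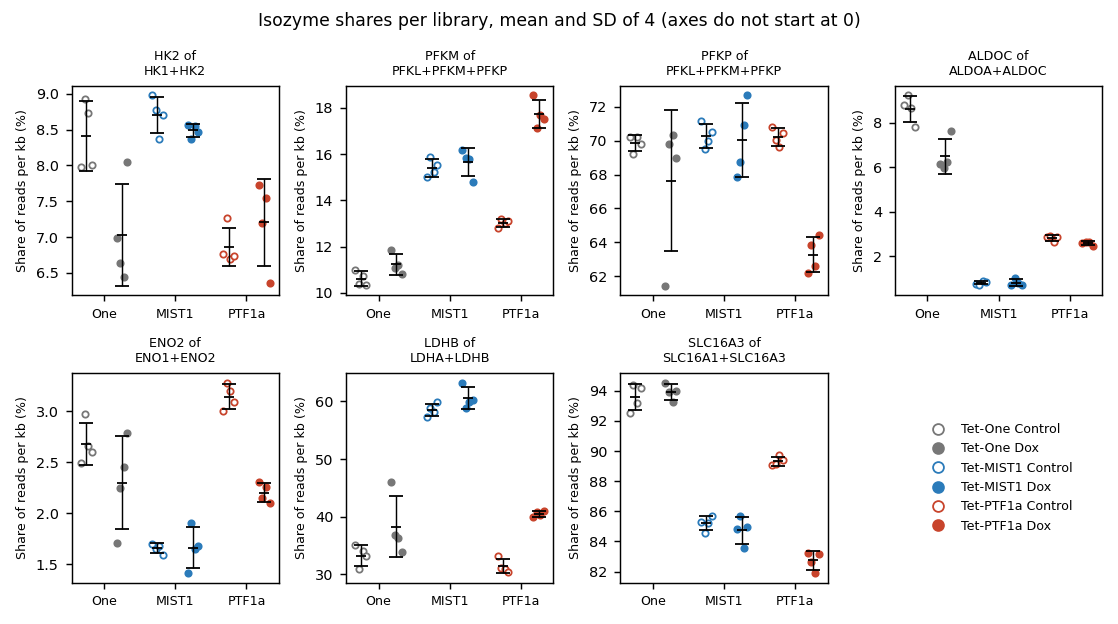
Share of each isozyme in the summed reads per kilobase of its group, per library; open points are Control, filled points Dox, bars the mean and SD of 4 libraries, and the percentage axes do not start at 0. In Tet-PTF1a the share of LDHB was 31.4% in Control and 40.5% in Dox, and that of SLC16A3 89.3% and 82.8%, without overlap.

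The starting levels of the members differed between the clones before any Dox. In RPKM (CPM per kilobase of exon), GAPDH was the highest member in each line, with Control levels of 2345 (Tet-One), 2016 (Tet-MIST1) and 1313 (Tet-PTF1a), and ENO1 followed in each. The third place was held by LDHA in Tet-One and Tet-PTF1a and by PKM in Tet-MIST1. ALDOC was at 54.5 ± 8.15 in Tet-One, at 13.8 ± 0.769 in Tet-PTF1a and at 4.94 ± 0.400 in Tet-MIST1. Tet-MIST1 also had the lowest Control levels of PDK1, BNIP3, VEGFA and LDHA on this scale. PDK3 was lowest in Tet-One, at 0.549 ± 0.0569, against 1.39 for Tet-MIST1 cells and 2.03 for Tet-PTF1a cells. The lines were scaled separately and each is a clone, so these levels are given as a description and were not tested.

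**Figure D5:**
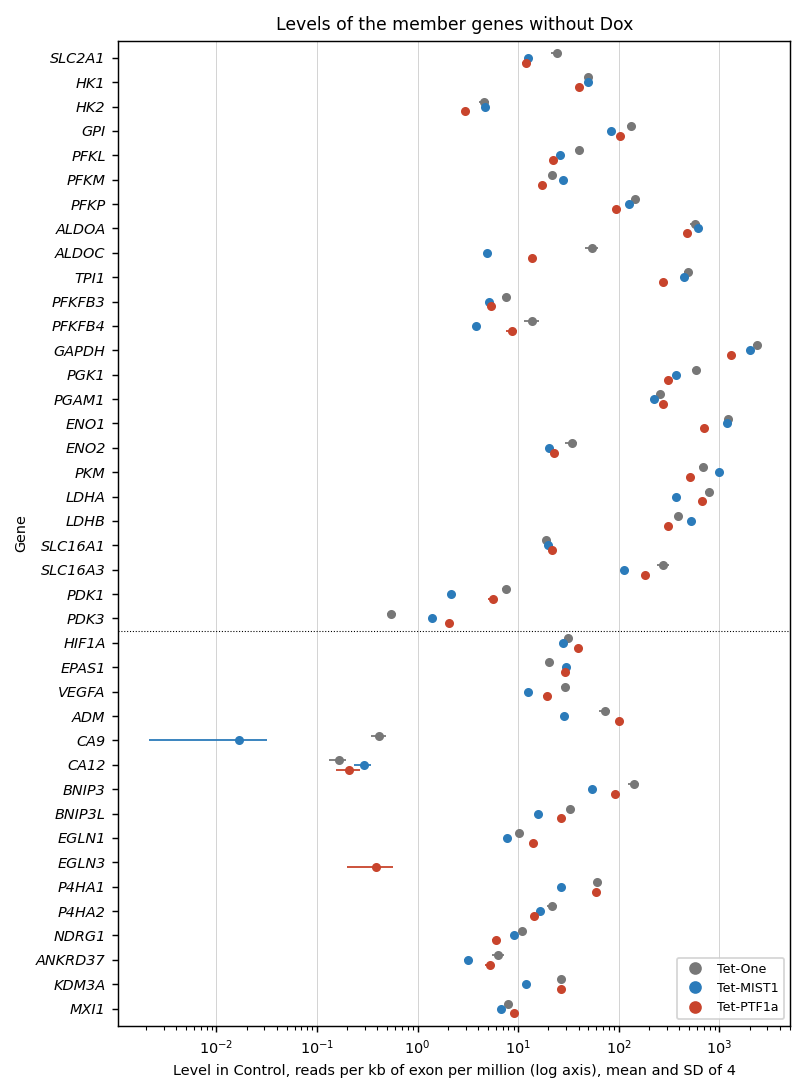
Level of each member in Control, in RPKM on a log axis, as mean and SD of 4 libraries, in Tet-One (grey), Tet-MIST1 (blue) and Tet-PTF1a (red). GAPDH and ENO1 are the highest members in each line, and ALDOC is at 54.5 in Tet-One and 4.94 in Tet-MIST1.

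Promoters of the glycolysis genes repressed most in Tet-PTF1a are shown because they moved together, with that of SLC2A1, which moved the other way. HIF binds a core that reads ACGTG or GCGTG, and the same letters occur within the E box CACGTG, which is bound by MYC and related factors. RefSeq promoters (GRCh38.p14, 250 bases before to 50 after a transcript start) were matched for 36 of the 40 members, with 66 starts. ACGTG or GCGTG was present on either strand in 68.2% of the members' promoters and in 48.4% of all 35116 promoters, and ACGTG alone in 37.9% and 21.4%. CACGTG was present in 12.1% and 7.26%. The members were chosen in part as HIF targets, so a higher share is no independent result. For each gene the 150 bases before the start with the most matches are given, 5′ to 3′ on the strand of the gene, with the matches in capitals.
PFKP, chr10:3104459-3104608, plus strand: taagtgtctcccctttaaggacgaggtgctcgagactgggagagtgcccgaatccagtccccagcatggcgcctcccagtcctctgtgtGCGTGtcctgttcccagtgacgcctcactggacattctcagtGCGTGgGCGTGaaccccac
ALDOA, chr16:30064347-30064496, plus strand: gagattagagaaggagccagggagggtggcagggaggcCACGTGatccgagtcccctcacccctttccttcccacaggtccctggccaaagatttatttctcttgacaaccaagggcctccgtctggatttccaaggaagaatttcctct
ALDOC, chr17:28576896-28577045, minus strand: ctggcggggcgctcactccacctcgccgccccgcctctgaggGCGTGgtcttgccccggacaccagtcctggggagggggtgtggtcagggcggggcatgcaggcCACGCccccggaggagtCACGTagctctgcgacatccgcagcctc
GAPDH, chr12:6535114-6535263, plus strand: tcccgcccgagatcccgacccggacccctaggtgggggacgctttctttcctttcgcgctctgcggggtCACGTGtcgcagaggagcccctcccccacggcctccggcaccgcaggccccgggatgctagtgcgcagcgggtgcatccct
ENO2, chr12:6914430-6914579, plus strand: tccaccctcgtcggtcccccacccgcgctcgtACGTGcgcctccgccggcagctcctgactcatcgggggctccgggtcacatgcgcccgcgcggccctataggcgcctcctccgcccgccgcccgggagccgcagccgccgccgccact
LDHA, chr11:18394413-18394562, plus strand: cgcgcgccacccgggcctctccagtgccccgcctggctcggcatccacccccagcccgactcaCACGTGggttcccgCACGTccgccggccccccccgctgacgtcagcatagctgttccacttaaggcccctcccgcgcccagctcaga
SLC16A3, chr17:82228892-82229041, plus strand: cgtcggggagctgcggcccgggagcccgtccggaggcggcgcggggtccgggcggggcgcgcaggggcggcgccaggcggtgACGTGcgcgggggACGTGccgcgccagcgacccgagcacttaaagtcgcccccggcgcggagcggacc
SLC2A1, chr1:42958869-42959018, minus strand: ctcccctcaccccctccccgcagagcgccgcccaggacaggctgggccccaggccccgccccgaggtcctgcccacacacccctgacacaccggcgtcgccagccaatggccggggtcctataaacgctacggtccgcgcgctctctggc

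The 7 repressed genes held 1 to 3 matches in these windows, and ALDOA, GAPDH and LDHA the full E box, whose letters hold the core on both strands. Windows were picked from 5 starts for SLC16A3, 4 for PFKP, 3 for ALDOA and 2 for LDHA. ALDOC, GAPDH, ENO2 and SLC2A1 had 1 start each. As the start with the most matches was taken, the numbers of matches cannot be compared between genes. The start taken need not be the main one of its gene. The window of SLC2A1 held no match, which says only that these letters are not in it. A match is not evidence of binding, and no binding was measured here.

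Lists of related genes beyond the members were counted against the same backgrounds. In Tet-PTF1a, 24.4% of all genes were repressed and 23.8% induced. Of 42 further HIF targets, 26 were repressed (61.9%) and 5 induced (11.9%). Of 35 further genes of carbohydrate use, 19 were repressed (54.3%) and 6 induced (17.1%). The median log2 fold changes were -0.21 and -0.12, against 0.00 for all genes. The repressed HIF targets were led by BHLHE41, a clock-related repressor (93.6 ± 2.75 to 32.1 ± 0.818 CPM, log2 fold change -1.54), GPRC5A, an orphan receptor (-1.53), and HILPDA, a lipid droplet protein (-0.97). The induced ones were led by PLOD1, a lysyl hydroxylase of collagen (216 to 434 CPM, 1.00 ± 0.023, FDR = 3.55e-37), SPAG4 (0.53) and BHLHE40 (0.27). Of the carbohydrate genes, the glycogen phosphorylase PYGB fell from 436 ± 16.1 to 232 ± 3.89 CPM (-0.91), followed by the glucose transporter SLC2A3 (-0.72) and LDHD (-0.44). The last 2 were at low levels, SLC2A3 at 2.71 and 1.59 CPM and LDHD at 1.82 and 1.34 (FDR = 0.0374). The monocarboxylate transporter SLC16A7 was induced from 0.348 ± 0.106 to 2.77 ± 0.271 CPM (2.68 ± 0.21, FDR = 6.76e-17), and RPIA (0.34) and TKT (0.24) of the pentose phosphate pathway by less.

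Of 15 regulators of HIF tested in Tet-PTF1a, 5 were repressed and 3 induced, 53.3% against 48.2% of all genes, and the median change was 0.00. VHL, which recruits the ligase that removes HIF alpha subunits, was repressed (log2 fold change -0.26, 96.0 ± 6.31 to 80.5 ± 0.591 CPM), with SIAH1 (-0.18) and ARNT2 (-0.15), while OS9 (0.16), HSP90AB1 (0.14) and CUL2 (0.09) were induced.

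In Tet-MIST1 more genes were induced than repressed in the lists of carbohydrate genes and further HIF targets, but not in that of the regulators. Of all genes tested in this line, 11.9% were induced and 8.77% repressed. Induced were 14 of 35 carbohydrate genes against 2 repressed, and 11 of 41 further HIF targets against 2 repressed. The median changes of the carbohydrate genes and further HIF targets were 0.06 and 0.02. FAM162A, a mitochondrial protein, was induced from 63.5 ± 2.66 to 109 ± 13.3 CPM (0.79 ± 0.076, FDR = 4.18e-05), with FAM13A (0.51) and PPP1R3C, a glycogen-targeting subunit (0.43). STC1, a secreted glycoprotein, was repressed (-0.38). The carbohydrate genes were led by the pyruvate carboxylase PC (0.50), HKDC1 (0.47) and the mitochondrial pyruvate carrier MPC1 (0.42), with GYS1 (-0.22) and PYGB (-0.19) repressed. HKDC1 was near the filter of 0.5 CPM, at 0.620 CPM in Control and 0.878 in Dox (FDR = 0.0417). Of 15 regulators 3 passed, beside 20.6% of all genes. OS9 was induced (0.23) and ARNT2 (-0.53) and HIF1AN, the factor-inhibiting hydroxylase (-0.19), were repressed. In Tet-One 0 of these 93 genes tested passed, with DESeq2 as well. An unadjusted p under 0.05 in edgeR's test was found for 10 of them, beside 401 of all 13428 genes tested.

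Markers of cell identity also changed in Tet-PTF1a, where 48.2% of all genes were DEGs. Of 7 epithelial and ductal markers tested 4 were repressed, KRT8 (log2 fold change -1.30), KRT18 (-1.10), KRT19 (-1.07) and EPCAM (-0.22), and 3 were induced, KRT7 (1.64), CDH1 (0.82) and SOX9 (0.30). Their summed level was 3462 to 3633 CPM in Control and 1755 to 1810.0 in Dox. The mesenchymal VIM was repressed (-0.33), as were COL1A1 of 2 fibroblast markers (-1.25) and CD68 (-0.97), the one leukocyte marker listed. Of 2 acinar markers PRSS1, the trypsinogen, was induced (4.59), the pair summing to at most 0.849 CPM in Control and 4.32 in Dox, and CEL was not called (0.04). In Tet-MIST1, where 20.6% of all genes were DEGs, 1 of 7 epithelial markers and CD68 were repressed and 1 of 2 fibroblast markers was induced. In Tet-One 0 markers passed, with 2 at an unadjusted p under 0.05 in edgeR's test, beside 401 of 13428 genes tested. The part of these changes in those of the members was not tested.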

How the data were processed

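Polyadenylated RNA of 24 libraries, 4 per group, was sequenced as paired ends on an Illumina HiSeq. The authors aligned the reads to hg19 with TopHat, dropped genes that did not exceed 0.5 CPM in 4 or more samples, and deposited a raw read count for each gene. The submitters' processing notes name TopHat, HTSeq, DESeq and edgeR. The annotation and the use of strand are not given in the sources used here. The deposited tables also hold CPM values and the authors' own fold changes, p-values and FDRs, which were not used. In the paper's own edgeR analysis a few genes were DEGs in Tet-One, and far fewer in Tet-MIST1 than here. The reason for this difference was not tested. All pairs of replicates differed by more than sampling noise, with chi-square values of 1.39 to 238 for each degree of freedom.

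Groups were taken from the sample labels. For each line, Dox and Control libraries were compared in edgeR 4.0.16 (R 4.3.3), by its robust quasi-likelihood test with TMM factors, on the deposited counts, over genes above 0.5 CPM in at least 4 of 8 libraries, with Benjamini-Hochberg adjustment over all genes tested. Differences between lines were tested as the interaction of line and Dox over 16 libraries. Log2 fold changes carry a prior count of 2. SEs are from the F statistics, and 95% intervals use the normal quantile 1.96. CPM values in the text were computed from the counts with TMM factors of each line, and levels per kilobase with the listed exon lengths. Isozyme shares were compared by exact two-sided permutation tests (scipy 1.17.1), adjusted over 21 shares.

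The fits were tested on simulated data with the same spread of replicates in every line and no outlying library. That test does not cover the larger spread of Tet-One. The members and lists were chosen with earlier results of these data known. Values in every library are given for members with an FDR under 0.05 and a log2 fold change of 0.5 or more in size in a line, filled to 12 with the largest called changes, and for HIF1A and EPAS1; of each further list, up to 3 genes each way in Tet-PTF1a and Tet-MIST1 are named, except that 1 of them is not reported here. Alternatives were DESeq2 1.42.0, the likelihood ratio test, library size and upper quartile scaling, no filter, at least 10 counts in every library, a replicate block, removal of the exon length trend, all 24 libraries in 1 fit, a fold limit, a prior count of 0.125 and leaving out each library. Removal of length and GC trends together was added after the data were seen.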

Additional observations from a re-analysis of the deposited data

Results flagged for a closer look

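In 16 of 234 groups of 4 libraries a member's highest or lowest library lay far from the rest, its gap to the nearest library, as a part of the group's range, being above Dixon's 95% critical value. Chance alone does this in about 1 group of 20. Of these, 8 fell on Tet-One Dox replicate 1. Its level was the highest for ENO1 (4726 CPM, gap 0.977 of the range), TPI1 (1282 CPM, 0.925), CA9 (0.671 CPM, 0.901), LDHB (1032 CPM, 0.873) and GAPDH (4945 CPM, 0.834) and the lowest for EPAS1 (63.5 CPM, 0.925), HIF1A (98.6 CPM, 0.898) and PFKP (281 CPM, 0.834). In Tet-One Control, replicate 2 was high for P4HA1 (0.89) and KDM3A (0.856), and replicate 4 was low for MXI1 (0.843). In Tet-MIST1 Dox, replicate 1 was high for ADM (0.938), replicate 2 was high for ALDOC (0.921), and replicate 4 was low for P4HA1 (0.847) and BNIP3L (0.846). In Tet-PTF1a, Control replicate 1 was low for LDHA (1592 CPM against 1752 to 1785, 0.83).

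The response to Dox differed between lines in 39 tests of the interaction at FDR under 0.05. They were 9 of 38 members for Tet-PTF1a against Tet-One, 2 of 39 for Tet-MIST1 against Tet-One and 28 of 38 for Tet-PTF1a against Tet-MIST1. Of all genes tested, 12.9%, 1.66% and 36.4% differed in these comparisons. Between Tet-PTF1a and Tet-One the differences in log2 fold change were 0.74 for SLC2A1, 0.55 for NDRG1, -0.83 for SLC16A3, -0.62 for ALDOA, -0.57 for ENO2, -0.48 for GAPDH, -0.45 for PFKP, -0.41 for LDHA and -0.27 for BNIP3L. Between Tet-MIST1 and Tet-One they were 0.76 for NDRG1 and 0.46 for P4HA2.

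Between Tet-PTF1a and Tet-MIST1 the glycolysis genes differed by 0.41 for SLC2A1, -0.21 for GPI, -0.45 for PFKP, -0.54 for ALDOA, -0.70 for ALDOC, -0.30 for TPI1, -0.40 for GAPDH, -0.17 for PGK1, -0.14 for PGAM1, -0.28 for ENO1, -0.81 for ENO2, -0.66 for LDHA, -0.22 for LDHB, -0.82 for SLC16A3, -0.50 for PDK1 and -0.78 for PDK3. The hypoxia genes differed by 0.30 for HIF1A, 0.69 for EPAS1, -0.38 for VEGFA, -0.85 for CA12, -0.56 for BNIP3, -0.51 for BNIP3L, -0.20 for EGLN1, -0.33 for P4HA1, -0.24 for P4HA2, -0.20 for NDRG1, -0.91 for ANKRD37 and -0.27 for KDM3A.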

How the results depend on the processing

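Tet-One gave 0 called members under each alternative run, and the counts of members called in Tet-PTF1a and different between Tet-PTF1a and either other line stayed within 1.5 times the values given, except that 8 members in Tet-PTF1a and 1 in Tet-MIST1 also had a log2 fold change of 0.5 or more in size (backgrounds 10.9% and 2.97% of genes). With that limit 14 further pathway genes were called in Tet-PTF1a and 3 in Tet-MIST1. With all 24 libraries in 1 fit, 7 members and 18 further genes were called in Tet-MIST1, and 34 further genes in Tet-PTF1a. The replicate numbers did not pair the samples, as the deviations of same-numbered Control and Dox libraries correlated at -0.374 to 0.334 and 1 of 12 Control libraries correlated best with the Dox library of its own number. With the replicate block nonetheless, 6 members and 21 further genes were called in Tet-MIST1, and 1 member differed between Tet-MIST1 and Tet-One. That difference counted 4 members with DESeq2, 4 with the likelihood ratio test, 5 with the exon length trend removed and 5 with length and GC trends removed, against 2. The fold limit apart, the share of all genes called under these alternatives is not reported here, so these counts have no background. The cause of these shifts was not tested.

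Leaving out single libraries gave 6 to 14 called members and 19 to 38 further genes in Tet-MIST1, the highest without Dox replicate 1, and 19, 20 and 21 further genes without Control replicates 1, 3 and 4. It gave 1 to 12 members for Tet-MIST1 against Tet-One, with 12 without Tet-One Dox replicate 1, 4 without Tet-One Dox replicate 4 and 1 when a single one of Tet-One Dox replicates 2 and 3, Tet-MIST1 Control replicates 1 to 4 or Tet-MIST1 Dox replicates 1, 3 and 4 was left out. In Tet-PTF1a the range was 29 to 32 and 29 of the 30 calls passed with any single library left out, CA12 being the exception. For fits with a library left out the share of all genes called is not reported here, so these counts have no background. Under all alternatives 21 of the 30 passed. With all 24 libraries in 1 fit HK1, PFKFB3, PKM, HIF1A, EPAS1, ADM, CA12, BNIP3 and KDM3A did not. ANKRD37 in Tet-PTF1a passed without Control replicate 1 (FDR = 0.00936) or Dox replicate 4 (0.0275), with the likelihood ratio test (0.048), the replicate block (0.0359) and upper quartile scaling (0.0494). Isozyme shares from counts in place of reads per kilobase again gave 0 of 21 past 0.05 in the exact permutation test, and 3 libraries against 4 cannot go under p = 0.0571 in it. No named member's called change turned its sign.

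For members under 1 CPM, CA9 and CA12, depth limited the comparison. The spread of the Tet-One libraries, Dox replicate 1 above all, limits what differences from that line can be resolved.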
